A study of Mus musculus with 6 samples.

Results

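The amino acid and neurotransmitter transporters of the mouse caput epididymis were taken as the genes whose symbol places them in the solute carrier families Slc1, Slc3, Slc6, Slc7, Slc36, Slc38 or Slc43. The rule, which reads symbols and no measured value, found 64 of the 24346 genes in the deposited table. Of these, 61 are transporters or transporter subunits. The other 3 (Slc7a6os, Slc36a1os and Slc6a19os) are named only as opposite-strand neighbours of a transporter gene, and of them only Slc6a19os overlaps its partner. RNA came from the caput, the first stretch of the duct where sperm mature, of 8-week-old mice. There were 3 libraries labelled wild-type and 3 labelled Adgrg2-/Y, from males whose only copy of this X-linked gene carries a knockout (KO). Its product is an adhesion-type G protein-coupled receptor found in efferent ducts and epididymis. The labels give neither the strain nor the part of Adgrg2 that was altered, and are silent on whether the 3 libraries per genotype were separate animals. The p-values therefore measure only the spread between libraries, part of which may be technical.

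The epididymal epithelium makes and takes up the amino acids, taurine, carnitine and peptides that bathe sperm in the duct, and amino acids cross its membranes through a few large carrier families. Slc1 carriers take up glutamate and aspartate or exchange small neutral amino acids. Slc6 carriers use sodium and chloride to take up neurotransmitters, taurine, creatine, glycine and neutral amino acids. Most Slc7 proteins are light subunits that reach the cell surface only when joined to a heavy subunit of the Slc3 family, and the remaining ones are cationic amino acid transporters that work alone. Slc36 and Slc38 carriers mostly move small neutral amino acids with protons or sodium. Slc43 holds uniporters of large neutral amino acids and a carrier of purine bases.

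The libraries of the KO differed among themselves more than those of the wild-type. Over the 12799 genes tested, the median log2 SD among replicates was 0.067 for wild-type, 0.284 in the KO and 0.145 in the KO without replicate 3. KO replicate 3 stood apart from the other libraries, with a mean correlation of 0.894 with the wild-type libraries against 0.96 and 0.971 for the other KO libraries. Adgrg2 itself stood at 808 to 850 FPKM (fragments per kilobase, scaled to library size) in wild-type, with 410, 324 and 328 FPKM for KO replicates 1, 2 and 3, a 2.36-fold lower mean that missed the threshold (limma, adjusted p = 0.0579). Its level was thus lower in each KO library, but was not near 0.

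Markers of several cell types differed between the KO libraries. The 5 endothelial markers summed to 52.1 to 55.9 FPKM in wild-type, to 53.1 and 39.5 FPKM in KO replicates 1 and 2, and to 1.55 FPKM in KO replicate 3. The 7 smooth muscle markers summed to 2181 to 2455 FPKM in wild-type against 2427, 866 and 225 FPKM in KO libraries. Actg2 made up most of the wild-type sum, at 1676 to 1911 FPKM, and stood at 306 FPKM in KO replicate 2. The median differences of the 7 markers from the wild-type mean, on the log2(FPKM + 1) scale, were -0.26, 0.11 and -3.37 in KO replicates 1, 2 and 3. Basal cell markers, 6 in all, summed to 198 to 203 FPKM against 202, 249.5 and 39.1 FPKM, and the 5 fibroblast markers to 399 to 453 FPKM against 159.7, 342 and 33.7 FPKM. Each of these 4 sums was thus lowest in KO replicate 3, and each of the 5 endothelial markers was below 1 FPKM there, though none was at 0. Initial segment genes, 10 in all, summed to 43791 to 45574 FPKM in wild-type against 28590.2, 14339 and 11248 FPKM in KO libraries. One of them, Lcn2, did not fall with the sum, at 8739 to 8997 FPKM in wild-type against 10562, 8783 and 8761 FPKM. The median differences of the 10 genes were -0.42, -2.24 and -3.42 in KO replicates 1, 2 and 3. Germ cell genes, also 10, summed to 155 to 164 FPKM in wild-type against 27.0, 13.3 and 9.94 FPKM in KO libraries. Markers of principal or luminal epithelial cells summed to 35551 to 41189 FPKM in wild-type against 50563, 50469.5 and 63857 FPKM in KO libraries, so the labelled epithelial tissue was present in every library. None of the epithelial, stromal or initial segment markers passed the threshold. All 9 germ cell genes tested had a negative change, and 5 of them passed, among them Dkkl1 (limma, adjusted p = 0.00564). In bulk RNA, fewer cells of a type and less RNA per cell cannot be told apart.

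**Figure D1:**
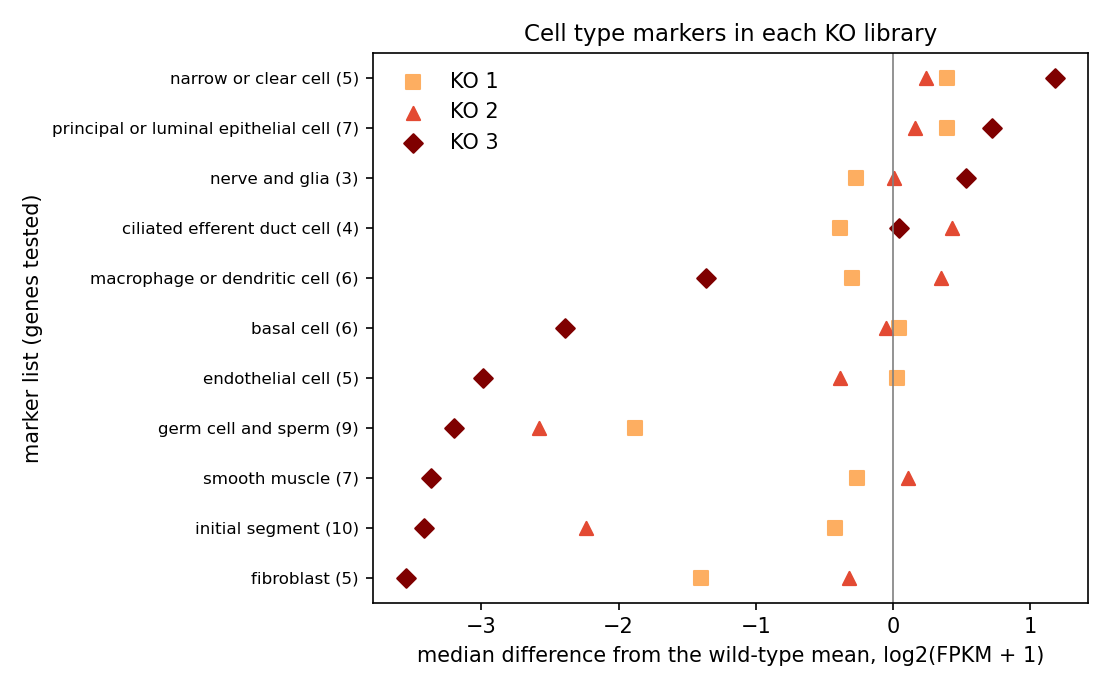
Median difference of each KO library from the wild-type mean, on the log2(FPKM + 1) scale, for each marker list with at least 3 tested genes (number tested in parentheses). In KO replicate 3 (diamonds) the fibroblast list stands at -3.55 and the endothelial list at -2.99, whereas in KO replicate 1 (squares) the endothelial list stands at 0.03.

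In wild-type caput a handful of transporters made up nearly all of the family's transcripts. Slc38a5, a sodium-coupled carrier of glutamine and other neutral amino acids also called SNAT5 (chromosome X, 8271381 to 8280179, mm10), was by far the most abundant, at 2749.8, 2526 and 2630.3 FPKM. It was followed by Slc7a5, the large neutral amino acid transporter LAT1 (chromosome 8, 121881146 to 121907686), at 599, 627 and 629 FPKM. Slc1a1, the glutamate and aspartate carrier EAAC1 of epithelia and neurons (chromosome 19, 28835135 to 28913960), came next at 350, 343 and 355 FPKM. Slc3a2, the heavy subunit 4F2hc that joins LAT1 (chromosome 19, 8706882 to 8723369), stood at 327, 330.1 and 338 FPKM. These 4 genes held 90.7% to 91.2% of the summed FPKM of the 64 genes in wild-type and 93.2% to 94.9% in the KO.

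The next rank was well below Slc3a2. Slc7a8 (LAT2), a light subunit for neutral amino acids, was at 63.6 to 70.1 FPKM and Slc1a5 (ASCT2), a glutamine exchanger, at 65.3 to 66.8 FPKM, and these neighbours in the order overlapped. Slc38a10 at 51.6 to 57.3 FPKM, the cationic transporter Slc7a1 (CAT1) at 38.5 to 41.2 FPKM and its relative Slc7a4 at 33.5 to 37.4 FPKM did not overlap with their neighbours. The glutamine carrier Slc38a2 (SNAT2), induced by amino acid shortage in many cells, stood at 20.1 to 22.1 FPKM. Slc6a9, the glycine transporter GlyT1, was the most abundant Slc6 member at 10.1 to 10.9 FPKM. The 12th in the order, Slc7a6os, encodes no transporter.

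**Figure D2:**
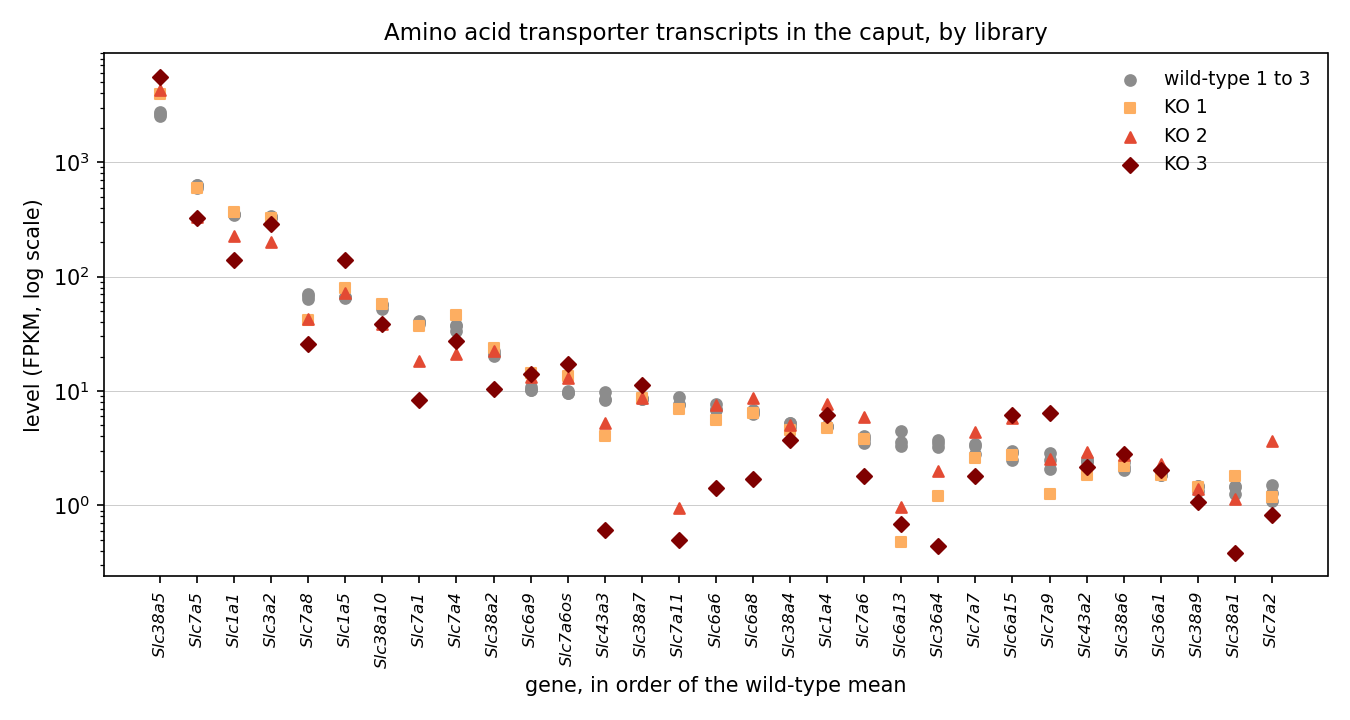
Level of each of the 31 genes tested, in FPKM on a log axis, in order of the wild-type mean; grey circles are the 3 wild-type libraries and coloured symbols the 3 KO libraries. Slc38a5 lies above every other gene in each library, and the wild-type libraries lie close together while those of the KO spread.

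Of the 64 genes, 33 had a mean below 1 FPKM and were not tested, and 14 of them were under 0.1 FPKM in every library. The GABA transporter gene Slc6a11 and the kidney genes Slc7a12 and Slc7a13 were listed at 0 in all 6 libraries. The noradrenaline transporter Slc6a2 stood at 0.247 to 0.39 FPKM in wild-type against 0.308 to 0.642 FPKM in KO libraries, while the dopamine transporter Slc6a3 and the serotonin transporter Slc6a4 were at 0.124 FPKM or less. The glial glutamate carriers Slc1a2 and Slc1a3 reached at most 0.0606 and 0.441 FPKM. The heavy subunit Slc3a1 (rBAT), partner of Slc7a9 in the kidney, stood at 0.144 to 0.159 FPKM in wild-type against 0.112 to 0.166 FPKM in KO libraries, far below Slc3a2.

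Of the 31 members tested, 1 passed the threshold, against 32 of 12799 genes overall (0.25%, of which 10 rose and 22 fell). That gene was Slc6a13, which fell. In 11 members the genotypes did not overlap, with the KO below in 7 and above in 4, or 35.5% against 32.9% of all genes tested, a share near the background. At an unadjusted p under 0.05 stood 8 members, 25.8% against 17.5% of all genes. The log2 change was negative in 20 members and positive in 11, with a median of -0.169 against 0.012 over all genes tested.

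Slc6a13 encodes GAT2, a carrier of GABA, betaine and taurine known from liver, kidney and the coverings of the brain. It lies on chromosome 6, 121300288 to 121337721, and was a minor transcript of the family. Its level was 3.61, 3.32 and 4.47 FPKM in wild-type against 0.479, 0.967 and 0.681 FPKM in KO replicates 1, 2 and 3. All KO libraries were low, by similar amounts, and the genotypes did not overlap. The mean was 3.80 ± 0.601 FPKM in wild-type against 0.709 ± 0.245 FPKM in the KO (SD, n = 3), a 5.36-fold fall, with a log2 change of -1.49 ± 0.17 (SE, limma, adjusted p = 0.0458). These values rest on 120 to 162 normalized counts in wild-type and 17.4 to 35.1 in the KO. The call was kept without KO replicate 1 (adjusted p = 0.0248) and without KO replicate 3 (0.0206). It was lost without KO replicate 2 (0.0718), without each of wild-type replicates 1, 2 and 3 (0.313, 0.365 and 0.391) as well as with pseudocounts of 0.1 and 0.01 (0.0777 and 0.0929), quantile normalization (0.059) and normalized counts (0.0883). Over the alternatives it ran from 0.0206 to 0.391. Germ cell genes were also low in all 3 KO libraries, with median differences of -1.88, -2.58 and -3.20 on the log2(FPKM + 1) scale beside -1.69, -1.28 and -1.51 for Slc6a13, and fibroblast markers stood at -1.40, -0.32 and -3.55. Of the 2 red blood cell genes tested, Hba-a1 had differences of -3.70, -2.06 and -3.75, also low in all 3 KO libraries. The other, Hbb-bs, reached 13.2 FPKM in wild-type replicate 3 alone. It stood at 0.00316 and 0.00312 FPKM in wild-type replicates 1 and 2 and at 0.00283 to 0.00311 FPKM in KO libraries. The part of these marker genes in the result for Slc6a13 was not tested.

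The other carriers of that branch were high or low in single libraries. Slc6a6 (TauT), the taurine carrier, stood at 6.89, 7.72 and 6.84 FPKM in wild-type against 5.58, 7.53 and 1.43 FPKM in KO libraries. The creatine carrier Slc6a8 stood at 6.78, 6.23 and 6.59 FPKM against 6.42, 8.70 and 1.69 FPKM. Both were lowest in KO replicate 3, and neither passed (adjusted p = 0.454 and 0.653). The betaine and GABA carrier Slc6a12 was below 1 FPKM in every library except KO replicate 2, at 1.25 FPKM.

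**Figure D3:**
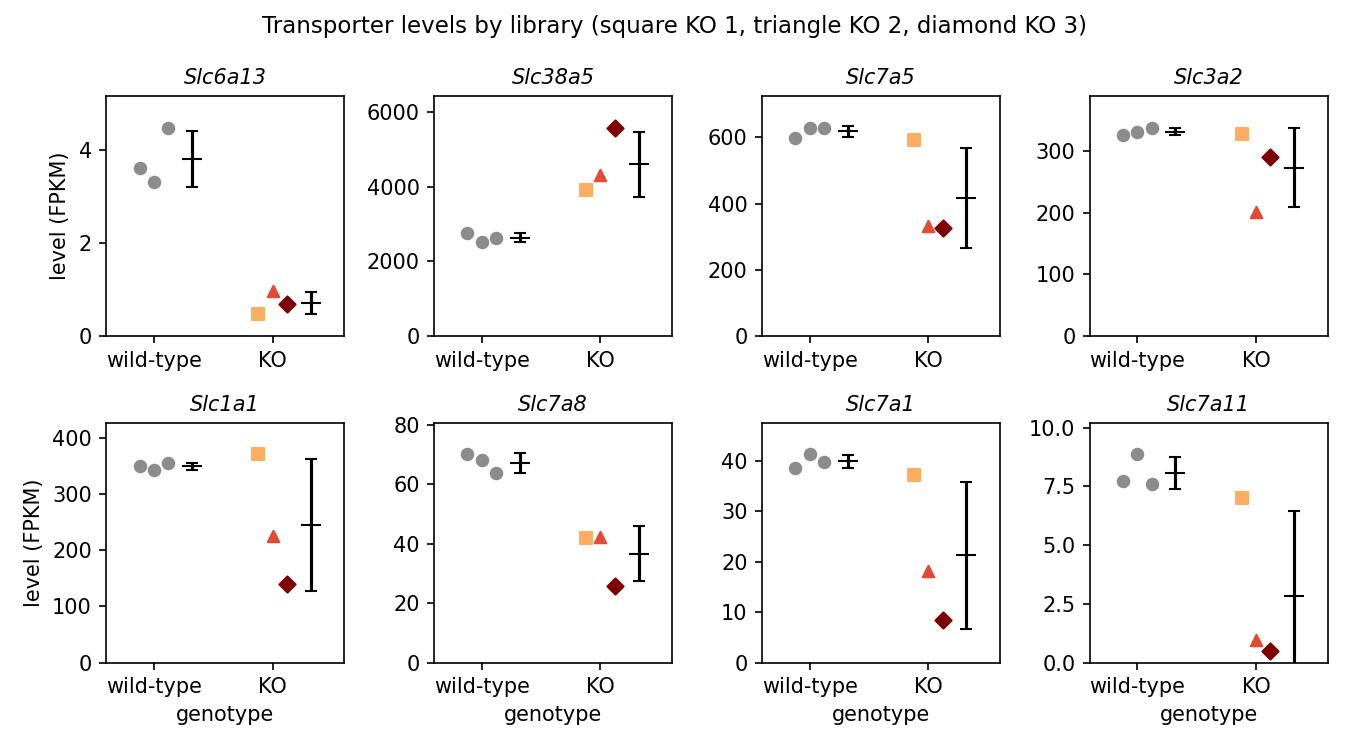
Level in FPKM of 8 transporters in each library, with the mean and SD (n = 3) of each genotype beside the points. Slc6a13 is low in all 3 KO libraries and Slc38a5 high in all 3, whereas Slc7a5, Slc1a1, Slc7a1 and Slc7a11 are near wild-type in KO replicate 1 and low in KO replicates 2 and 3. The SD bar of Slc7a11 in the KO runs below the axis.

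Slc38a5, the most abundant member, was higher in each KO library. Against 2526 to 2749.8 FPKM in wild-type, KO replicates 1, 2 and 3 held 3914, 4310.2 and 5576 FPKM, so the genotypes did not overlap. The mean was 2635 ± 112 FPKM in wild-type against 4600.1 ± 868 FPKM in the KO (SD, n = 3), a ratio of 1.75, and the log2 change of 0.79 ± 0.25 did not pass (SE, limma, adjusted p = 0.22). It passed narrowly without KO replicate 3 (0.0494, log2 change 0.64), and over the alternatives ran from 0.0494 to 0.619. Its share of the summed FPKM of the 64 genes was 62.3%, 59.9% and 60.6% in wild-type against 70.1%, 79.9% and 83.6% in KO libraries. The means of these shares, 60.9% and 77.8%, gave an exact two-sided permutation p of 0.1, the smallest that 3 libraries against 3 allow. The summed FPKM of the family was 4220.5 to 4412 in wild-type and 5398 to 6669 in the KO, with the same p of 0.1. Without Slc38a5 the sum was 1662 to 1712 FPKM in wild-type against 1673, 1087 and 1093 FPKM in KO libraries (exact permutation p = 0.2). The FPKM of all genes summed to 691563 to 714360 in wild-type against 732542, 645173 and 931769 in KO replicates 1, 2 and 3. As a share of these totals the family held 0.610% to 0.618% in wild-type against 0.763%, 0.837% and 0.716%, so KO replicate 3 had the lowest share of the KO libraries. The main fit was not rescaled for these totals. In FPKM, the markers of principal or luminal epithelial cells were, like Slc38a5, highest in KO replicate 3. Their median differences were 0.39, 0.16 and 0.72 beside 0.57, 0.71 and 1.08 for Slc38a5, and their part was not tested.

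Of the 8 members of this family tested, none passed with limma, and Slc38a5 alone had an unadjusted p under 0.05. Slc38a10 stood at 51.6, 56.7 and 57.3 FPKM in wild-type against 57.4, 38.8 and 38.6 FPKM in KO libraries (adjusted p = 0.385). Slc38a2 stood at 20.1, 21.0 and 22.1 FPKM against 23.7, 22.2 and 10.4 FPKM, low in KO replicate 3 alone (0.663). Its log2 change of -0.24 turned to 0.12 without KO replicate 3. Slc38a9, the lysosomal arginine sensor that signals to mTORC1, was at 1.33 to 1.47 FPKM in wild-type against 1.07 to 1.46 FPKM in KO libraries. Slc38a1 (SNAT1), a glutamine carrier, was at 1.26 to 1.48 FPKM against 1.81, 1.13 and 0.387 FPKM, and Slc38a4 at 4.82 to 5.29 FPKM against 4.599, 5.02 and 3.76 FPKM. Both were lowest in KO replicate 3, unlike Slc38a6, at 2.05 to 2.41 FPKM against 2.201, 2.73 and 2.81 FPKM. The lysosomal glutamine carrier Slc38a7 was at 8.53 to 8.68 FPKM in wild-type against 8.71, 8.64 and 11.2 FPKM in KO libraries.

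The heteromeric transporters combine Slc3a2 with light subunits, and the transcripts of Slc3a2 and Slc7a5 were lower in KO replicates 2 and 3 than in KO replicate 1. Slc7a5 stood at 599, 627 and 629 FPKM in wild-type against 593, 334 and 326 FPKM in KO libraries. KO replicate 1 lay just below the lowest wild-type library. Its log2 change of -0.62 ± 0.26 did not pass (SE, limma, adjusted p = 0.289), and passed without KO replicate 1 (0.0319, log2 change -0.91). Slc3a2 stood at 327, 330.1 and 338 FPKM against 327, 201.5 and 291 FPKM, with the lowest value in KO replicate 2 and overlapping genotypes (adjusted p = 0.441). In KO replicate 3 Slc7a5 was thus about as low as in KO replicate 2, whereas Slc3a2 was nearer wild-type. The ratio of Slc7a5 to Slc3a2, both in FPKM, was 1.83, 1.90 and 1.86 in wild-type against 1.81, 1.66 and 1.12 in KO libraries. The groups did not overlap (exact two-sided permutation p = 0.1, the smallest possible), although KO replicate 1 was close to wild-type.

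**Figure D4:**
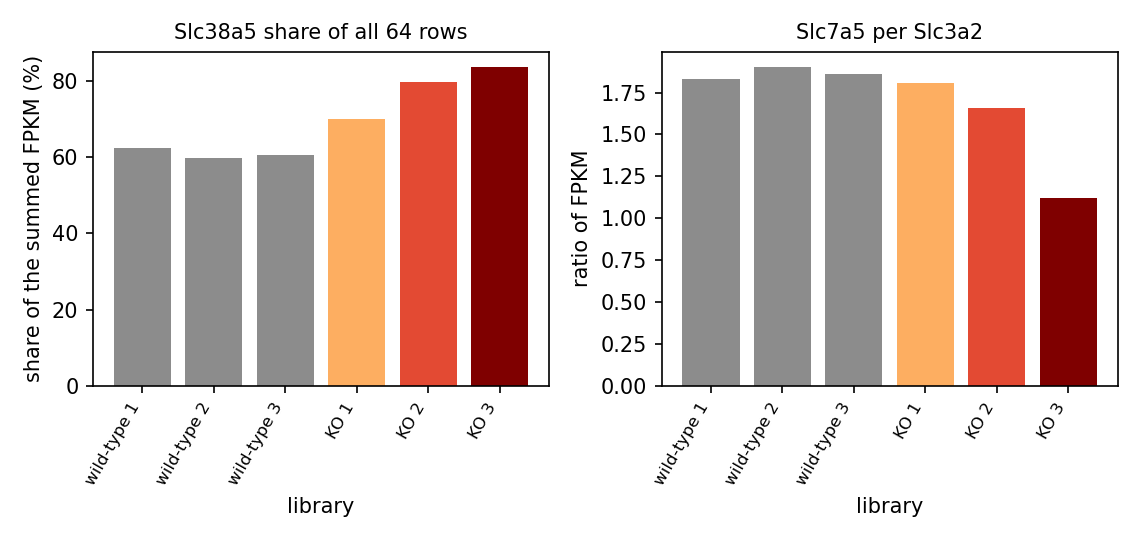
Left, share of Slc38a5 in the summed FPKM of the 64 genes, in percent, for each library. Right, ratio of Slc7a5 to Slc3a2 in FPKM; the share is 70.1% or more in each KO library, and the ratio is lowest, at 1.12, in KO replicate 3.

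The other light subunits divided into those low in several KO libraries and those that varied. Slc7a8 (chromosome 14, 54722215 to 54781886) stood at 70.1, 68.0 and 63.6 FPKM in wild-type against 41.9, 42.4 and 25.9 FPKM in KO libraries. Every KO library was well below every wild-type library. The mean was 67.3 ± 3.29 FPKM in wild-type against 36.7 ± 9.39 FPKM in the KO (SD, n = 3), 1.83-fold lower, with a log2 change of -0.89 ± 0.20 (SE, limma, adjusted p = 0.148). Slc7a8 passed without KO replicate 3 (0.0162) and with sample weights (0.0363), and over the alternatives ran from 0.0162 to 0.555. The cystine and glutamate exchanger Slc7a11 (xCT; chromosome 3, 50364936 to 50499087), which feeds glutathione synthesis, stood at 7.73, 8.86 and 7.61 FPKM against 6.99, 0.945 and 0.503 FPKM. It was near wild-type in KO replicate 1 and low in the other KO libraries, with a log2 change of -1.66 ± 0.61 (SE, limma, adjusted p = 0.251). Without KO replicate 1 it passed (0.00664, log2 change -2.40). Initial segment genes were also lower in KO replicates 2 and 3 than in KO replicate 1, with median differences of -0.42, -2.24 and -3.42 in KO replicates 1, 2 and 3 beside -0.18, -2.22 and -2.59 for Slc7a11, and their part was not tested.

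Slc7a6 (y+LAT2) stood at 3.54 to 4.02 FPKM in wild-type against 3.84, 5.94 and 1.82 FPKM in KO libraries. Slc7a7 (y+LAT1) stood at 2.82 to 3.43 FPKM against 2.61, 4.40 and 1.81 FPKM. Slc7a9, the light subunit of cystine uptake in kidney, stood at 2.07 to 2.86 FPKM against 1.24, 2.55 and 6.38 FPKM. In these 3 the KO libraries lay on both sides of wild-type (adjusted p = 0.901, 0.77 and 0.829), and each change turned sign without KO replicate 3.

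The cationic transporter Slc7a1 (chromosome 5, 148327410 to 148399904) stood at 38.5, 41.2 and 39.7 FPKM in wild-type against 37.1, 18.1 and 8.39 FPKM in KO libraries. KO replicate 1 lay just below the wild-type libraries, and the other KO libraries far below (log2 change -1.10 ± 0.48 SE, limma, adjusted p = 0.298). Slc7a4 stood at 33.5, 37.2 and 37.4 FPKM against 46.0, 21.0 and 27.2 FPKM, on both sides of wild-type (0.599). Slc7a2 (CAT2) stood at 1.09 to 1.502 FPKM against 1.17, 3.64 and 0.817 FPKM, high in KO replicate 2 alone (0.755).

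No member of the Slc1 family passed with limma, and the 3 tested differed in which libraries were high or low. Slc1a1 stood at 350, 343 and 355 FPKM in wild-type against 370.3, 224 and 139 FPKM in KO libraries, above wild-type in KO replicate 1 and below it in the others (adjusted p = 0.38). Slc1a5 stood at 66.8, 65.3 and 66.0 FPKM against 80.1, 72.3 and 139 FPKM, higher in each KO library and most in KO replicate 3 (log2 change 0.49 ± 0.25 SE, adjusted p = 0.353). Slc1a4 (ASCT1), which exchanges serine and alanine, stood at 4.88 to 4.95 FPKM against 4.75, 7.66 and 6.11 FPKM (0.431).

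Slc6a9 was higher in each KO library by a nearly even amount, at 10.9, 10.1 and 10.3 FPKM in wild-type against 14.4, 13.2 and 13.96 FPKM in KO libraries. The means were 10.4 ± 0.414 and 13.9 ± 0.577 FPKM (SD, n = 3), and the change of 0.38 ± 0.09 on the log2 scale did not pass (SE, limma, adjusted p = 0.15). Slc6a15 (B0AT2), a carrier of branched-chain amino acids and proline, stood at 2.49 to 3.01 FPKM in wild-type against 2.74, 5.86 and 6.18 FPKM in KO libraries, and passed when KO replicate 1 was left out (adjusted p = 0.318 with all libraries). Slc36a4 (PAT4, chromosome 9, 15709738 to 15742388), of the Slc36 family, stood at 3.24, 3.72 and 3.48 FPKM against 1.21, 2.001 and 0.443 FPKM. It was 2.86-fold lower without overlap (log2 change -1.08 ± 0.27 SE, limma, adjusted p = 0.163). Slc36a1 (PAT1) of the lysosome and brush border was at 1.83 to 1.99 FPKM against 1.83 to 2.32 FPKM.

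Slc43a3 (chromosome 2, 84936545 to 84958509), a carrier of purine bases rather than amino acids, stood at 9.70, 8.26 and 8.45 FPKM in wild-type against 4.04, 5.30 and 0.611 FPKM in KO libraries. It was lower in each KO library and lowest in KO replicate 3, 2.65-fold by the means (log2 change -1.40 ± 0.50 SE, limma, adjusted p = 0.243), and passed without KO replicate 3 (0.0403, log2 change -0.80). In KO replicates 1, 2 and 3 the median difference was 0.03, -0.39 and -2.99 for endothelial markers and -1.40, -0.32 and -3.55 for fibroblast markers, beside -0.96, -0.64 and -2.60 for Slc43a3, and their part was not tested. Its relative Slc43a2 (LAT4) was at 2.39 to 2.53 FPKM against 1.83, 2.91 and 2.15 FPKM (0.776).

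Slc7a6os, a neighbour of Slc7a6 on the other strand whose yeast relative Iwr1 helps to import RNA polymerase II into the nucleus, was at 9.56, 9.95 and 9.63 FPKM in wild-type against 13.5, 12.9 and 17.3 FPKM in KO libraries. It was higher in each KO library (adjusted p = 0.157; 0.0398 without KO replicate 3). Its annotated span ends apart from that of Slc7a6, with an overlap of 0 bases.

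The KO libraries differed in how many members lay away from wild-type. In KO replicate 1, 5 of the 31 tested members lay 0.5 or more below the wild-type mean on the log2(FPKM + 1) scale and 1 lay 0.5 or more above (6.01% and 6.57% of all genes tested). In KO replicate 2 there were 10 below and 5 above (8.27% and 7.66% of all genes), and in KO replicate 3 there were 15 below and 5 above (22.8% and 24.0%). The members' shares below were 16.1%, 32.3% and 48.4%, each at least 2 times that of all genes, and shares above were 3.23%, 16.1% and 16.1%. Slc7a8, Slc43a3, Slc6a13 and Slc36a4 lay that far below in all 3 KO libraries, 4 of 31 members against 2.22% of all genes. Slc38a5 alone lay that far above in all 3, against 1.94% of all genes. As the KO libraries are compared with the same wild-type mean, these counts are a description.

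**Figure D5:**
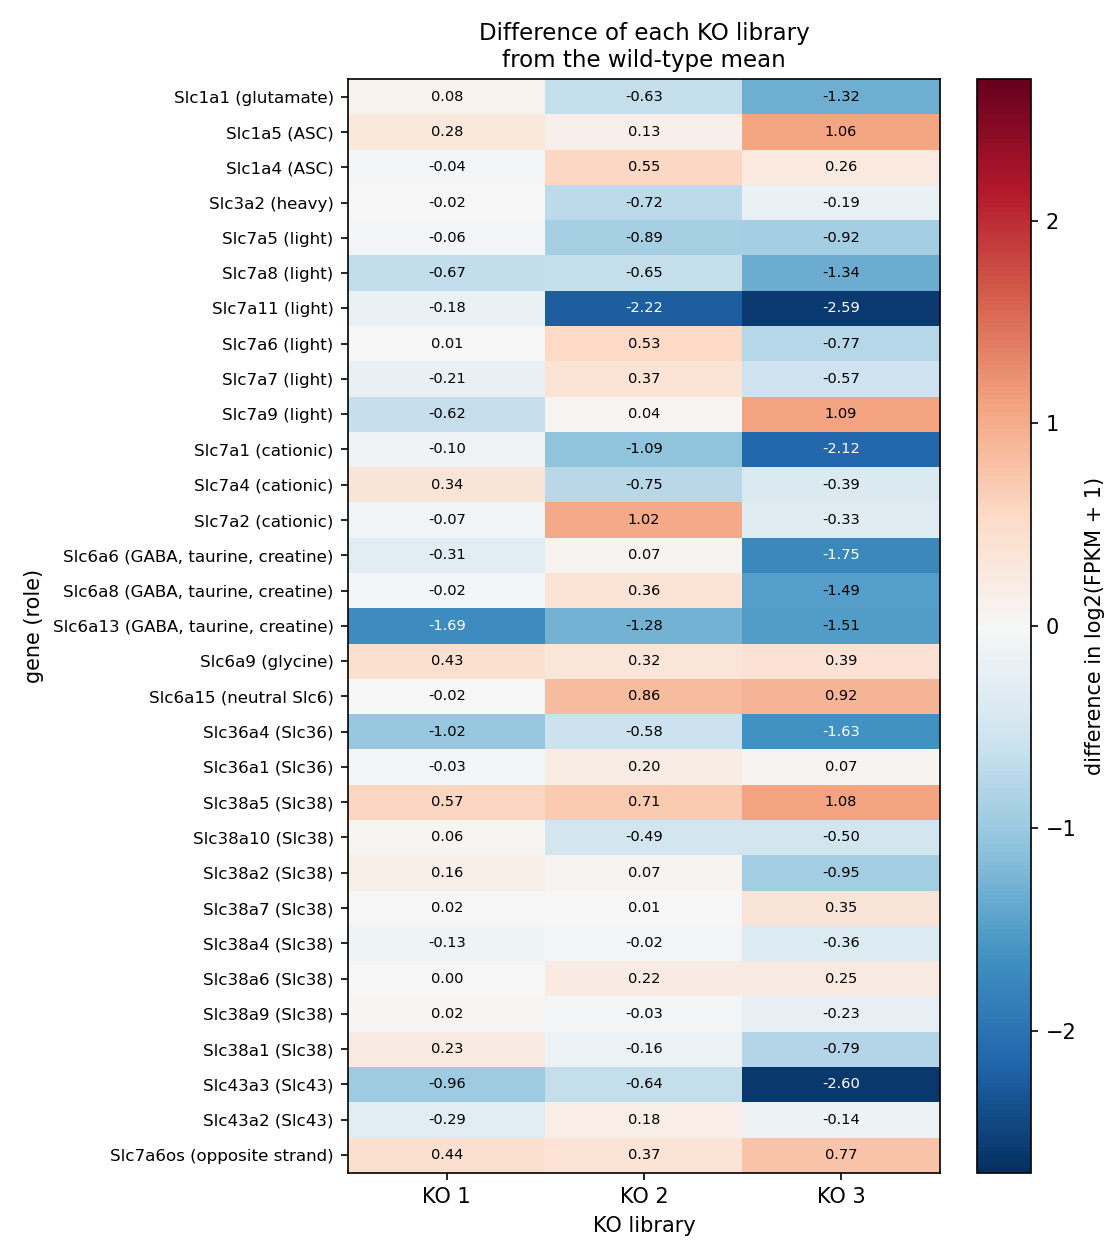
Difference of each KO library from the wild-type mean, on the log2(FPKM + 1) scale, for the 31 genes tested, grouped by role; blue is lower and red higher in the KO library. Slc6a13 is blue in all 3 columns (-1.69, -1.28 and -1.51), while Slc7a11 and Slc7a1 are pale in KO replicate 1 and dark in the others.

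Without KO replicate 3, 5 members passed against 4.93% of all genes (631), namely Slc6a13, Slc7a8, Slc43a3, Slc38a5 and Slc7a6os. Without KO replicate 1, 4 passed against 4.23% of all genes (541), namely Slc6a13, Slc7a5, Slc7a11 and Slc6a15. With sample weights, 2 passed against 2.36% (302), namely Slc6a13 and Slc7a8. The fits without a library rest on 2 KO libraries, so these counts depend on which KO library is kept.

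Transcript length moved with the values of KO replicate 3. The length implied by the ratio of normalized count to FPKM ranged from 1.27 to 8.63 kb among the tested members, with a median of 3.35 kb against 2.39 kb for all genes tested. In KO replicate 3 the 15 longer members had a median difference of -0.77 and the 16 shorter ones 0.03. Across the 31 members Spearman's rho between length and difference was -0.34, -0.09 and -0.05 in KO replicates 3, 2 and 1, against -0.41, 0.05 and -0.10 across all genes, which share the library and are not independent. With the length trend removed, an alternative chosen after the data were seen, no member passed and Slc6a13 had an adjusted p of 0.0573.

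The promoter of Slc7a11 is known for elements that bind ATF4, the factor that induces transporters when amino acids run short, and so the promoter windows were searched. The windows, from 250 bases before to 50 after a RefSeq start (GRCm38.p6), were at hand for 46 members, 67 windows in all. The element core TGATGNAA, on either strand, was in 4 of these 67 windows and in 3.97% of 32851 windows of all genes. It was present in the windows of Slc7a11, Slc1a4 and Slc7a7. The cAMP element TGACGTCA was in 1 (1.79% of all), the AP-1 site TGANTCA in 10 (7.81%) and the ETS site CCGGAAGT in 0 (3.89%). No other motif searched was found in the 3 windows printed here. The windows of Slc7a11 (chr3:50443564-50443863, minus strand), Slc1a4 (chr11:20332664-20332963, minus strand) and Slc38a5 (chrX:8271131-8271430, plus strand) are shown because they are those of 2 members with the core that differed in their values and of the most abundant member, which has none of the 4 motifs. Capitals mark the core, which occurs in both orientations in Slc7a11.
Slc7a11: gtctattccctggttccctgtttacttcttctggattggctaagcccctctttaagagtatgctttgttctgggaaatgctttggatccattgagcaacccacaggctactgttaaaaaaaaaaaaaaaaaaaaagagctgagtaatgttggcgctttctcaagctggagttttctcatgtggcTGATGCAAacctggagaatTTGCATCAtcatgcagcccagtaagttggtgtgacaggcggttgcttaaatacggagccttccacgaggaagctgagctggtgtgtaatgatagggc
Slc1a4: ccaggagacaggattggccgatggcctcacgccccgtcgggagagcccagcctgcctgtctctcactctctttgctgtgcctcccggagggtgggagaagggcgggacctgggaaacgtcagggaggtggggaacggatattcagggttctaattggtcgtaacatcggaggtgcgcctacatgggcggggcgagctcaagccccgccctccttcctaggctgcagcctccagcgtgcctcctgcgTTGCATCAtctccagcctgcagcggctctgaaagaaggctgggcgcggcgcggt
Slc38a5: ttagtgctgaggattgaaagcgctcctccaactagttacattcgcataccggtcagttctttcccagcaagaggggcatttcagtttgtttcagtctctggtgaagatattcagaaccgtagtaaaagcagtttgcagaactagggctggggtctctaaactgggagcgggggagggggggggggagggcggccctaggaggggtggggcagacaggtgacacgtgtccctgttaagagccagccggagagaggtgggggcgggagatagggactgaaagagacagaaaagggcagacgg
Slc7a11 was low in KO replicates 2 and 3, as described above, whereas Slc1a4 was at 7.66 and 6.11 FPKM there against 4.88 to 4.95 FPKM in wild-type. A match of letters is not a binding site, and no binding was measured.

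Genes of the ATF4 response were measured beside the transporters. None of the 32 tested passed with limma, and 6 had an unadjusted p under 0.05, as did 17.5% of all genes tested. Of the changes, 21 were positive and 11 negative, and the median was 0.21 against 0.012 over all genes. Wars, a tryptophan tRNA synthetase gene, stood at 273 to 289.9 FPKM in wild-type against 394.5, 330.4 and 360.1 FPKM in KO libraries (adjusted p = 0.255), and Atf4 itself at 147 to 151 FPKM against 165, 136 and 225 FPKM (0.589). The KO libraries of Atf4 lay on both sides of wild-type.

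Enzymes that make or break down the carried substrates gave 0 calls among 29 tested genes with limma, and a median of 0.08. Of these 29, 3 had an unadjusted p under 0.05, against 17.5% of all genes. The 2 most abundant were Glul, glutamine synthetase, and Cdo1, the cysteine dioxygenase on the way to taurine. Glul stood at 1662, 1448 and 1558 FPKM in wild-type against 1865, 2889.6 and 4266 FPKM in KO replicates 1, 2 and 3 (log2 change 0.87, adjusted p = 0.265). Its KO libraries did not overlap with wild-type, and the highest was KO replicate 3, as for the glutamine carrier Slc38a5. Cdo1 stood at 834 to 910.1 FPKM against 894, 744.5 and 953 FPKM (0.96).

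Amino acid and transmitter carriers of other families, which include peptide carriers, vesicular carriers and mitochondrial carriers, gave 0 calls among 19 tested genes with limma. Of these 19, 5 had an unadjusted p under 0.05, against 17.5% of all genes, and the median was -0.02. The aromatic amino acid carrier Slc16a10 (TAT1) stood at 48.4 to 58.8 FPKM in wild-type against 46.1, 89.7 and 127.5 FPKM in KO libraries (adjusted p = 0.389). The peptide carrier Slc15a2 (PEPT2) stood at 29.1 to 34.5 FPKM against 26.2, 37.96 and 67.9 FPKM (0.522). Both were highest in KO replicate 3 and below wild-type in KO replicate 1. Genes of amino acid sensing by mTORC1 gave 0 calls among 30 tested with limma, and a median of 0.03. Of these 30, 3 had an unadjusted p under 0.05, against 17.5% of all genes. Lamtor2 was the most abundant of them, at 116 to 129 FPKM against 125, 94.7 and 244 FPKM, followed by Lamtor4 at 102 to 106 FPKM against 127, 103 and 313 FPKM. Regulators and trafficking partners of the carriers gave 0 calls among 15 tested with limma, and a median of 0.03. Of these 15, 2 had an unadjusted p under 0.05, against 17.5% of all genes. The most abundant members of this list were Bsg, a chaperone of carriers, and Ace. Bsg stood at 391 to 394 FPKM against 473.5, 403 and 536 FPKM (limma, adjusted p = 0.418), and Ace at 131 to 149.9 FPKM against 114, 149 and 245 FPKM (0.653).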

How the data were processed

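RNA of 6 caput libraries was measured by RNA sequencing, 3 per genotype. The submitters' processing notes name TopHat2 2.1.1, Cufflinks 2.2.1 and mm10; for annotation, strand setting and normalization method the sources used here give nothing. The deposited FPKM values and the deposited normalized counts, a signal scaled between libraries, had been normalized by the authors (per the file headers). Totals of normalized counts were 18136864 to 21455984 per library. They are not whole numbers, so no count model was fitted, and the intervals that raw counts would allow are not given.

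The 12799 genes averaging 1 FPKM or more were tested on log2(FPKM + 1) with limma 3.58.1 in R 4.3.3, moderated with a mean-variance trend, two-sided, adjusted by Benjamini-Hochberg over all of them at 0.05. This scale understates the change of low genes. The test was run on simulated data in which genes were independent and both genotypes had the same spread. The KO libraries here spread more than the wild-type ones, so that check cannot show how the test behaves on these data. Python 3.11.15 prepared tables. Members follow from a symbol rule, but members and lists were chosen with earlier results of these data known. Named members are those past the threshold, the 12 most abundant in wild-type, the 10 with the largest change, the Slc3 and tested Slc7 light subunits, and those 2-fold apart without overlap; further members, named to complete their families, were chosen after their values were seen. Alternatives changed the pseudocount, the filter, the scaling, the moderation, the weights, the measure, the replicate block and the libraries kept. The values of some members are not reported here. Each list is represented by its genes past the threshold or its 2 most abundant. All 64 members matched the RefSeq table of GRCm38.p6 by gene ID. No 2 libraries shared the FPKM value of more than 0.188% of tested genes. The median of all genes lay within 0.055 of wild-type in each KO library.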

Additional observations from a re-analysis of the deposited data

How the results depend on the processing

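The counts of genes called moved with most settings. The count over all genes, 32 as reported, was 16 and 11 with pseudocounts of 0.1 and 0.01, 101 with no filter on low values, 17 with a minimum mean of 5 FPKM, 106 with quantile normalization, 302 with sample weights, 6 with normalized counts, and 2 to 631 when 1 library was left out. The count of members, 1 as reported, was 0 with pseudocounts of 0.1 and 0.01, a minimum mean of 5 FPKM (Slc6a13 not tested), quantile normalization, normalized counts and the length trend removed, 2 with sample weights, and 0 to 5 when 1 library was left out. The cause was not tested. After each genotype's mean was removed, same-numbered libraries correlated at -0.113, 0.032 and 0.08, and 2 of 6 correlated best with their own number. With 3 libraries per genotype and KO replicate 3 far apart, these correlations cannot show whether the replicate numbers pair the libraries. With the replicate number as a block, 1 gene over all and 0 members passed. Of 20 named members tested, 16 kept their direction under every alternative that tested them. The exceptions were Slc38a2 (log2 change 0.0421 with sample weights, -0.44 to 0.12 with 1 library left out), Slc7a6 (0.0352 with quantile normalization, 0.16 with sample weights, -0.38 to 0.27 with 1 library left out), Slc7a7 (0.0165 with sample weights, -0.39 to 0.0823 with 1 library left out) and Slc7a9 (-0.25 with sample weights, -0.29 to 0.57 with 1 library left out). The planned count test was not run, because whole reads were not recovered from the normalized counts.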

Other observations

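Values of low or untested genes that belong in no comparison include the opposite-strand gene Slc36a1os. It stood at 0.228 to 0.43 FPKM in wild-type against 0.294 to 0.615 FPKM in KO libraries. Its annotated span overlaps that of Slc36a1 by 0 bases. Slc6a19os was listed at 0 in every library except wild-type replicate 2, at 0.0453 FPKM. It overlaps Slc6a19 by 826 bases, and without a stated strand setting reads of both cannot be told apart. The near-identical neighbours Slc6a20a and Slc6a20b were at 0.393 FPKM or less, and how reads were shared between them is not stated. Slc7a14, a lysosomal relative of the cationic transporters, was below the level tested but higher in each KO library, at 0.182, 0.196 and 0.213 FPKM in wild-type against 0.27, 0.286 and 0.388 FPKM in KO libraries, which correspond to 29.3 to 34.35 and 43.5 to 62.4 normalized counts. Among marker lists not described so far, narrow or clear cell markers summed to 67.3 to 69.7 FPKM in wild-type against 92.6, 82.5 and 158 FPKM in KO libraries. Macrophage or dendritic cell markers summed to 89.5 to 94.4 FPKM against 65.3, 128.9 and 87.1 FPKM. The 6 of them tested had median differences of -0.30, 0.35 and -1.36 in KO replicates 1, 2 and 3. Cd68 went the other way in KO replicate 3, at 62.6 FPKM against 17.4 to 21.4 FPKM in wild-type, and made up most of that library's sum. Nerve and glia markers summed to 19.1 to 20.6 FPKM in wild-type against 12.03, 8.51 and 22.5 FPKM in KO libraries. Ciliated efferent duct cell markers summed to 16.6 to 18.8 FPKM in wild-type against 12.7, 25.3 and 29.4 FPKM in KO libraries. The 4 of them tested had median differences of -0.39, 0.43 and 0.04. Rsph1, at 23.5 FPKM, made up most of the sum in KO replicate 3. Its difference there was 1.07, beside -0.07 for Foxj1, -0.30 for Tekt1 and 0.16 for Ccdc39. Red blood cell genes summed to 78.9 to 82.8 FPKM in wild-type against 5.41, 17.9 and 4.98 FPKM in KO libraries. Adipocyte markers summed to 1.13 to 6.78 FPKM against 2.01, 25.2 and 0.205 FPKM, and T cell markers to 2.94 FPKM or less in every library.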
